A study of Mus musculus with 8 samples.

Results

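In a mouse thymic lymphoma line in which Ikaros activity can be switched on, 10 genes of blood progenitors and of T cell leukaemia were measured. They are the transcription factor or cofactor genes Tal1, Lyl1, Lmo2, Hhex, Mef2c, Spi1, Bcl11a and Gata2 and the receptor genes Kit and Flt3, so that 2 of the 10 are not transcription factors. The genes were chosen by name and not by a rule on measured values, but with earlier results of these data known. For them 22 probe sets whose annotation gives 1 of these symbols alone were found. The probe set with the highest mean over the arrays stood for each gene among 18193 genes tested. The cells were T29, a line whose series text calls it Ikaros-deficient, and all carried a retroviral construct. MigR1 cells held the empty vector and Ik1ER cells held MigR1 with Ik1ER, Ikaros joined to the hormone-binding part of the estrogen receptor. Each line was kept for 24 h in 100 nM 4-hydroxytamoxifen (4OHT), the ligand that activates the fusion, or in its solvent ethanol, which gave 4 groups of 2 Affymetrix arrays. All values come from 1 lymphoma line, and no label says whether the transduced cells were pools or clones or whether replicate arrays stem from separate cultures. P-values therefore measure only how far these arrays differ, technical causes included, and 2 arrays a group limit the precision.

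TAL1 and LYL1 are basic helix-loop-helix proteins that pair with E proteins on DNA, and LMO2 is a LIM-only adaptor that joins such pairs to GATA factors through LDB1. In normal haematopoiesis these genes, together with Spi1 (PU.1), Gata2, Hhex, Mef2c, Bcl11a, Kit and Flt3, are active in stem cells and in the earliest progenitors that enter the thymus. They are switched off as thymocytes commit to the T lineage, and several of them become oncogenes when they are expressed again in T cell leukaemia. Ikaros, the product of Ikzf1, works in the same window of development.

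The arrays gave the following frame for these genes. As a gauge of background, the 27 probe sets for Bacillus transcripts had a median of 3.33 on the log2 scale and a highest mean of 5.27. Of all genes, 61.6% read above that highest mean. Of 7 T cell markers measured 6 read above it (Cd3d, Cd3e, Cd3g, Thy1, Cd28 and Ptcra, but not Cd5). Of the markers of other cells, 3 of 10 myeloid, 3 of 7 B cell, 2 of 7 mast cell and 1 of 4 stem and progenitor markers did. So did 3 of 7 erythroid and megakaryocytic, 2 of 5 stromal and endothelial and 0 of 4 dendritic cell markers. One of the Ikzf1 probe sets read 6.22-fold higher in the 4 Ik1ER arrays (lowest 10.45) than in the 4 MigR1 arrays (highest 8.51; two-sided exact permutation test, p = 0.0286, as small as 4 against 4 arrays can give), and for the other the difference was -0.07 (same exact test, p = 0.514). Both Ik1ER arrays numbered 2 stood apart in the transferrin receptor control, where the 3' probe set exceeded the 5' one by 1.66 and 1.91, against 1.15 to 1.39 on the other 6 arrays. Of the 10 genes, 8 read lower on the Ik1ER array numbered 2 than on that numbered 1 in ethanol and 9 did in 4OHT, against 7 in MigR1 ethanol and 3 in MigR1 4OHT and 49.1% to 56.3% of all genes in the 4 groups, and the part of this difference in the results was not tested beyond the settings given at the end. A lower reading in a culture can come from fewer expressing cells or from less RNA per cell, and these cannot be told apart here.

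Most of the 10 genes read no higher than the brightest background probe set in every group. Only the probe sets standing for Flt3, Spi1 and Bcl11a had a mean above 5.27, which makes 3 of 22 probe sets. Tal1, Lyl1, Lmo2, Hhex, Mef2c and Gata2 stayed below it on all 8 arrays, and Kit lay around it. A change of a transcript that is not above background is compressed or cannot be seen on such arrays, so that for these 7 genes the intervals below bound the change of the reading and not that of the transcript.

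**Figure D1:**
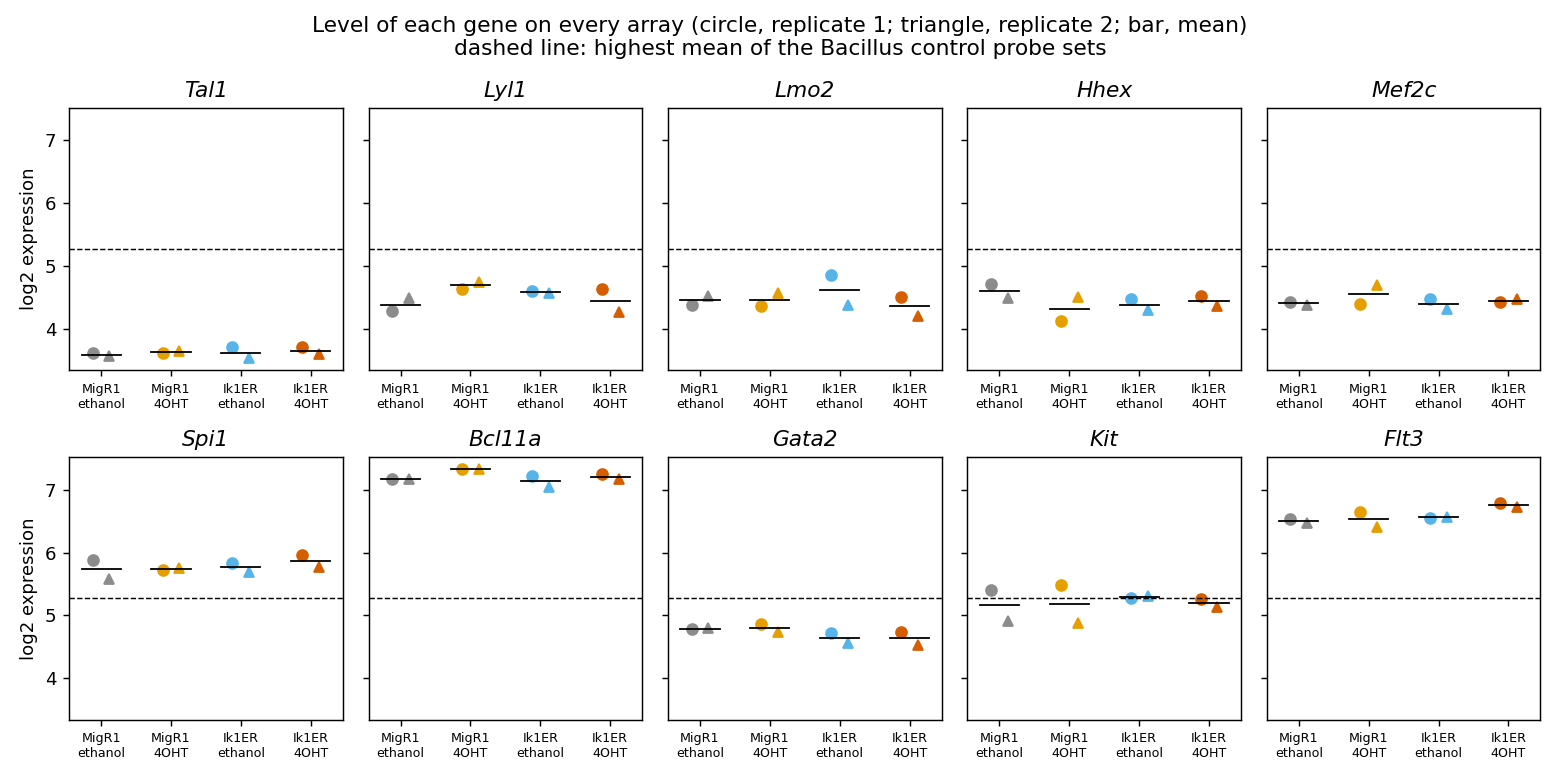
Log2 expression (y axis) of the 10 genes on each of the 8 arrays in the 4 groups (x axis), with replicate 1 as a circle, replicate 2 as a triangle and the group mean as a bar. The dashed line is the brightest Bacillus control (5.27), above which only Spi1, Bcl11a and Flt3 lay on all arrays.

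Set against the whole array, the count of these genes was 0 of 10 for 4OHT in Ik1ER cells (limma, 0 also at an unadjusted p under 0.05), where 5.35% of all genes were called. The median change of the 10 was 0.04 against 0.00 for all genes, and the median size of the change was 0.08 against 0.10. The Ik1ER groups did not overlap for 2 of the 10 (Kit and Flt3), as for 42.7% of all genes. In MigR1 cells the count was again 0 (limma, 1 at an unadjusted p under 0.05, Lyl1) against 0.00550% of all genes, and 2 did not overlap (Lyl1 and Bcl11a) against 29.8%. The 4OHT effect differed between the lines for none of the 10 (limma, 1 at an unadjusted p under 0.05, Lyl1) against 1.26% of all genes.

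Between the lines, limma called 0 of the 10 in ethanol (0 at an unadjusted p under 0.05) and 0% of all genes. In 4OHT it called 0 of the 10 (1 at an unadjusted p under 0.05, Flt3) against 5.10% of all genes, and over both treatments 0 of the 10 (0 at an unadjusted p under 0.05) against 1.79%. Lines did not overlap for 4 of the 10 in ethanol and 5 in 4OHT, against 37.5% and 44.7% of all genes. With so few genes, counts of 0 are near these shares and say nothing particular about the group. The widest interval for 4OHT in Ik1ER cells reached 0.64 on the log2 scale, so that none of the 10 intervals reached 1 in either direction.

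The core of the oncogenic complex, the helix-loop-helix genes and their LIM partner, was dim, and none of its changes passed the test. Tal1 gave 3.61 and 3.56 for MigR1 ethanol, 3.61 and 3.64 for MigR1 4OHT, 3.71 and 3.52 for Ik1ER ethanol and 3.71 and 3.59 for Ik1ER 4OHT arrays. All groups overlapped, and the change with 4OHT in Ik1ER cells was 0.03 (SE 0.09, limma, adjusted p = 0.907). Its 95% interval ran from -0.17 to 0.23.

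Lyl1 differed most among the group means, by 0.31 on the log2 scale. MigR1 arrays went from 4.27 and 4.48 in ethanol to 4.63 and 4.75 in 4OHT, and Ik1ER arrays from 4.60 and 4.57 to 4.63 and 4.27. The MigR1 groups did not overlap, whereas replicate 2 of Ik1ER cells in 4OHT lay as low as the lowest MigR1 array. In MigR1 cells, where no Ikaros fusion is present, the difference with 4OHT was 0.31 (SE 0.13, interval 0.02 to 0.60, limma, adjusted p = 0.9999). In Ik1ER cells it was -0.14 (SE 0.13, interval -0.43 to 0.15, adjusted p = 0.663). The difference between these effects was -0.45 (SE 0.18, interval -0.87 to -0.04, limma, adjusted p = 0.397) and did not pass. Among 11213 genes above 5.27, the readings most like those of Lyl1 over the 8 arrays were those of Zgpat (Pearson r = 0.946), Pmfbp1 (0.934) and Hs3st3b1 (0.930), given as a description of 8 values on a dim probe set.

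Lmo2 had its lowest group mean in Ik1ER cells in 4OHT, within a wide spread. MigR1 arrays read 4.38 and 4.52 in ethanol and 4.36 and 4.56 in 4OHT, and Ik1ER arrays read 4.85 and 4.37 in ethanol and 4.51 and 4.21 in 4OHT. The highest and the lowest value of the gene both came from Ik1ER cells, and the arrays of the 2 treatments overlapped there. The change in Ik1ER cells, -0.25 (SE 0.17, interval -0.64 to 0.14, limma, adjusted p = 0.525), was the largest in size among the 10 genes and smaller than the gap of 0.48 between the 2 Ik1ER ethanol arrays.

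Gata2, a zinc finger factor of stem cells and of the mast cell lineage that works with TAL1 and LMO2, read lower in the Ik1ER line whether or not 4OHT was present, by a difference that did not pass the test. Its brighter probe set read 4.78, 4.79, 4.86 and 4.74 on the 4 MigR1 arrays and 4.72, 4.55, 4.74 and 4.53 on the 4 Ik1ER arrays. The lines did not overlap, though the nearest 2 arrays both round to 4.74, as for 6.48% of all genes, and Gata2 was the only 1 of the 10 of which this was true. The line difference over both treatments was -0.16 (SE 0.07, interval -0.32 to 0.00, limma, adjusted p = 0.328), and -0.07 without both Ik1ER arrays numbered 2 (adjusted p = 0.682). With 4OHT in Ik1ER cells the change was -0.003 (SE 0.10). The other probe set overlapped between the lines, from 4.08 to 4.52 over all arrays.

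Of the progenitor factors outside that complex, Hhex, a homeobox gene that acts downstream of LMO2 in thymocyte transformation, read below the highest background mean too. Its MigR1 values were 4.70 and 4.48 in ethanol and 4.12 and 4.51 in 4OHT, and its Ik1ER values 4.47 and 4.30 in ethanol and 4.52 and 4.37 in 4OHT. The 4OHT and ethanol arrays of each line overlapped, with differences of -0.28 in MigR1 cells (SE 0.14, interval -0.61 to 0.05) and 0.06 in Ik1ER cells (SE 0.14, limma, adjusted p = 0.897).

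Mef2c, a MADS-box factor of lymphoid progenitors that marks an immature form of T cell leukaemia, had 5 probe sets with means from 3.25 to 4.45. The one that stood for the gene lay between 4.32 and 4.70 and differed with 4OHT by 0.05 in Ik1ER cells (SE 0.11) and 0.15 in MigR1 cells (SE 0.11). Another, with a mean of 3.48, read 0.24 lower with 4OHT in MigR1 cells (difference -0.24, SE 0.08, the smallest p of all 22 probe sets in any comparison), the opposite sign. None of the 5 was called when the p-values were adjusted over 45037 probe sets.

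Spi1 encodes PU.1, an ETS factor that drives myeloid and B cell fates and is shut down at T commitment. MigR1 arrays read 5.88 and 5.58 in ethanol and 5.72 and 5.76 in 4OHT, and Ik1ER arrays read 5.84 and 5.70 in ethanol and 5.96 and 5.77 in 4OHT, always above the highest background mean. All 8 values lay within 0.38 of each other. The change in Ik1ER cells was 0.10 (SE 0.12, limma, adjusted p = 0.753). Its interval from -0.17 to 0.37 leaves out a change of the reading by 1 on the log2 scale in either direction. The mean of Spi1, 5.78, was near 5.27, and 3 of 7 B cell markers read above 5.27 too (Pax5 5.88, Blnk 5.44 and Cd22 5.89). The interval may thus bound the reading and not the transcript here as well. Of the myeloid markers, Csf1r, Lyz2 and Cd14 read above 5.27, and the mean of all 10 ranged from 4.80 to 5.05 over the arrays. With 4OHT in Ik1ER cells Cd14 fell by 1.26, Lyz2 fell by 0.60 and Itgam rose by 0.54 (limma, adjusted p = 0.000556, 0.0222 and 0.0206), and their part in the Spi1 reading was not tested.

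Bcl11a, a zinc finger gene of progenitors and B cells, gave 2 kinds of reading. The probe set that stood for it, one of the type whose probes can also bind other sequences (suffix _x_at), read 7.18, 7.17, 7.33 and 7.33 in MigR1 cells (ethanol, then 4OHT) and 7.22, 7.05, 7.24 and 7.18 in Ik1ER cells. The other 6 probe sets of the gene had means from 3.07 to 3.87, all below the highest background mean, so that only the less specific one read above it. That one was 0.16 higher with 4OHT in MigR1 cells, where the groups did not overlap (SE 0.08), and 0.08 higher in Ik1ER cells (SE 0.08, limma, adjusted p = 0.703). None of the 7 was called in any of the 6 comparisons.

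The receptor genes encode KIT and FLT3, tyrosine kinases of the same class that bind stem cell factor and FLT3 ligand on progenitors. The probe set standing for Kit split by replicate number in the vector line rather than by treatment. In MigR1 cells the arrays numbered 1 read 5.40 in ethanol and 5.48 in 4OHT and those numbered 2 read 4.92 and 4.87. The Ik1ER arrays were close together, at 5.27 and 5.31 in ethanol and 5.26 and 5.14 in 4OHT. The 4OHT arrays were thus both below the ethanol ones there, but the change of -0.09 was less than its error (SE 0.21, interval -0.57 to 0.39, limma, adjusted p = 0.890). The second probe set of Kit lay between 4.52 and 4.78 and showed neither pattern. Its Ik1ER arrays read 4.69 and 4.63 in ethanol and 4.70 and 4.63 in 4OHT, a change of 0.003 (SE 0.10). Its MigR1 arrays read 4.78 and 4.52 in ethanol but 4.68 and 4.73 in 4OHT.

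Flt3 had the smallest p-value of the 10 genes for 4OHT in Ik1ER cells. The readings were 6.54 and 6.47 for MigR1 ethanol, 6.65 and 6.41 for MigR1 4OHT, 6.56 and 6.56 for Ik1ER ethanol and 6.80 and 6.72 for Ik1ER 4OHT. The 2 arrays of Ik1ER cells in 4OHT were the highest of the 8. The Ik1ER ethanol arrays also lay above both MigR1 ethanol arrays, by a mean of 0.05, and the MigR1 4OHT arrays spanned both of these groups. The change in Ik1ER cells was 0.20, or 1.15-fold (SE 0.09, interval -0.01 to 0.41, limma, adjusted p = 0.308). Against MigR1 cells in 4OHT it was 0.23 (SE 0.09, interval 0.02 to 0.44, limma, adjusted p = 0.240). These share the Ik1ER 4OHT arrays, and the difference of the 4OHT effect between the lines was 0.17 (SE 0.13, adjusted p = 0.716). Only 1 probe set, with a mean of 6.59, had the symbol of Flt3 alone. Most markers of other cells read below 5.27, but some read above Flt3, such as Epor (7.76) and Cpa3 (8.24).

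**Figure D2:**
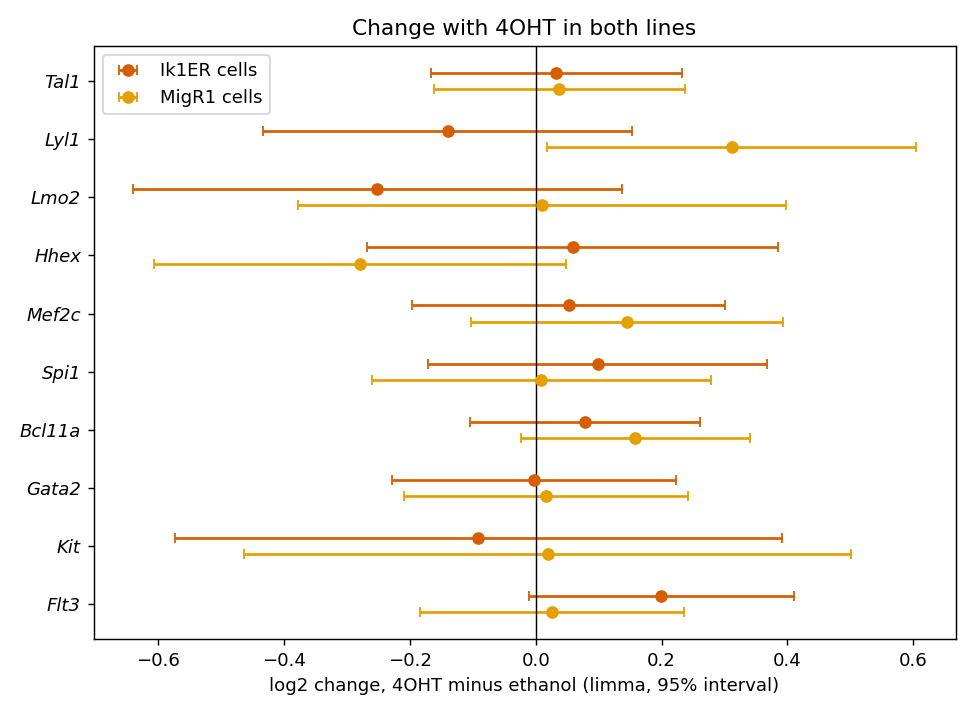
Log2 change with 4OHT against ethanol (x axis) for the 10 genes (y axis) in Ik1ER and MigR1 cells, with 95% intervals from limma. In Ik1ER cells all 10 intervals hold 0, from Lmo2 at -0.25 to Flt3 at 0.20, and in MigR1 cells all but that of Lyl1 do.

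Genes that work with these factors were given from 4 lists, whose counts for 4OHT in Ik1ER cells stand beside the 5.35% of all genes called there. The share was 4.35% of the first list below, 7.14% of the second, 25.0% of the third and 11.8% of the fourth, over few genes each. The lists were chosen with earlier results of these data known, so that these shares describe the lists and test nothing. Of 23 other oncogene and progenitor transcription factors measured, 1 fell with 4OHT in Ik1ER cells, none rose and 22 were not called, with a median of 0.00 against 0.00 for all genes. The one was Gfi1b, a zinc finger repressor of stem, erythroid and megakaryocytic cells. MigR1 arrays gave 7.52 and 7.44 in ethanol and 7.68 and 7.60 in 4OHT, and Ik1ER arrays gave 7.86 and 7.68 in ethanol and 5.80 and 5.94 in 4OHT, the last pair lying far below the other 6. Gfi1b fell by 1.90 (SE 0.09, limma, adjusted p = 8.44e-05), to 0.267 of its ethanol reading, and changed by 0.15 in MigR1 cells (SE 0.09, adjusted p = 0.9999). The difference between these effects was -2.06 (SE 0.13, adjusted p = 0.00138). Only 1 probe set of Gfi1b had 1 symbol.

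Mycn, a MYC family oncogene in the same list, was lower in the Ik1ER line over both treatments. Its bright probe set read 13.80, 13.79, 13.80 and 13.83 on the MigR1 arrays and 12.77, 12.98, 12.90 and 13.17 on the Ik1ER arrays, and the lines did not overlap. The line difference over both treatments was -0.85 (SE 0.08, limma, adjusted p = 0.00438), made up of -0.92 in ethanol (adjusted p = 0.267) and -0.78 in 4OHT (adjusted p = 0.00737), and the change with 4OHT in Ik1ER cells was 0.16 (SE 0.11, adjusted p = 0.524). The other 2 probe sets of Mycn, with means of 4.76 and 5.02 below the highest background mean, read -0.08 and -0.06 for the line. Besides Mycn the list had only Gfi1b called between the lines over both treatments (-0.74, SE 0.06, adjusted p = 0.00406), a mean of 0.29 in ethanol (adjusted p = 0.921) and -1.77 in 4OHT (adjusted p = 0.000149), which differ in sign. For both genes the test over both treatments took the arrays of a line as independent. Replicate differences of ethanol and 4OHT arrays correlated across genes, at 0.448 in Ik1ER and 0.269 in MigR1 cells. The SE and p over both treatments may thus be too small.

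Of 14 partners of the TAL1 and LMO2 complex, 12 of them above 5.27, 1 fell with 4OHT in Ik1ER cells and 13 were not called (median 0.08). Tcf4, which encodes the E protein E2-2, changed by -0.49 (SE 0.11, limma, adjusted p = 0.0377), from 9.85 and 9.78 in ethanol to 9.18 and 9.47 in 4OHT. Its other 5 probe sets read between -0.66 and -0.12, and none of the 6 passed when adjusted over all probe sets. The call was lost in 11 of 19 settings, among them leaving out any array except Ik1ER 4OHT replicate 2 (adjusted p up to 0.178). Between the lines none of the 14 was called over both treatments, with Ldb1, the bridging partner of LMO2, at -0.14 (adjusted p = 0.299) and Tcf4 at -0.17 (adjusted p = 0.327).

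All 12 measured T commitment genes, the set that comes on as the progenitor genes go off, read above 5.27. In Ik1ER cells with 4OHT 3 of them fell, none rose and 9 were not called (median 0.01). They were Cd3g (-0.69, SE 0.09, limma, adjusted p = 0.00522), Cd3e (-0.43, adjusted p = 0.0151) and Ptcra (-0.61, adjusted p = 0.0408), which encode chains of the T cell receptor complex and the pre-T cell receptor. Of the 12, only Cd3g was called between the lines over both treatments (-0.37, adjusted p = 0.0358), a mean of -0.02 in ethanol (adjusted p = 0.994) and -0.72 in 4OHT (adjusted p = 0.00502). Without both Ik1ER arrays numbered 2 the calls of Cd3g (adjusted p = 0.0579), Cd3e (0.0580) and Ptcra (0.128) with 4OHT were lost. That of Cd3e was lost too without either Ik1ER array numbered 1 (changes -0.36 for ethanol, -0.41 for 4OHT) and with only the arrays compared (limma, adjusted p = 0.0939). That of Ptcra was lost without any array except Ik1ER 4OHT replicate 2 (changes -0.71 to -0.46). With only the arrays compared (limma, adjusted p = 0.0984) and with every probe set (limma, adjusted p = 0.0758) it was lost as well. Ptcra was called in 9 of 19 settings. The line call of Cd3g held in 9 of 18 settings, and its test too took the arrays of a line as independent.

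Of 17 ligands, relatives and signal transducers of KIT and FLT3, 2 rose with 4OHT in Ik1ER cells, none fell and 15 were not called (median -0.10). Pik3r1, a regulatory subunit of phosphoinositide 3-kinase, rose by 0.67 (SE 0.13, 1.59-fold, limma, adjusted p = 0.0222), from 8.78 and 9.12 to 9.49 and 9.75. Its other 3 probe sets read 0.90, 0.68 and 0.52, of which the second passed over all probe sets (adjusted p = 0.0320). Grb2, an adaptor that links such receptors to RAS, rose by 0.43 (SE 0.08, adjusted p = 0.0223), while its second probe set read 0.22 and was not called. Without Ik1ER ethanol replicate 1 both calls were lost (changes 0.50 and 0.36), as they were without Ik1ER 4OHT replicate 2 (0.54 and 0.39). Both were lost too with only the arrays compared (limma, adjusted p = 0.106 and 0.107). That of Grb2 was also lost without Ik1ER 4OHT replicate 1 (0.48) and without both Ik1ER arrays numbered 2 (0.47). The mean over probe sets lost it as well (limma, adjusted p = 0.0505). Pik3r1 was called in 16 of 19 settings and Grb2 in 13 of 19. Over both treatments neither passed between the lines (adjusted p = 0.0540 and 0.0829). No gene of the 4 lists was called with 4OHT in MigR1 cells (limma), where 0.00550% of all genes were. For the difference of the 4OHT effect between the lines, limma called none of these 17 genes and none of the 14 partners, against 1.26% of all genes. Cd3e (adjusted p = 0.158) and Ptcra (0.371) were not called there either.

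**Figure D3:**
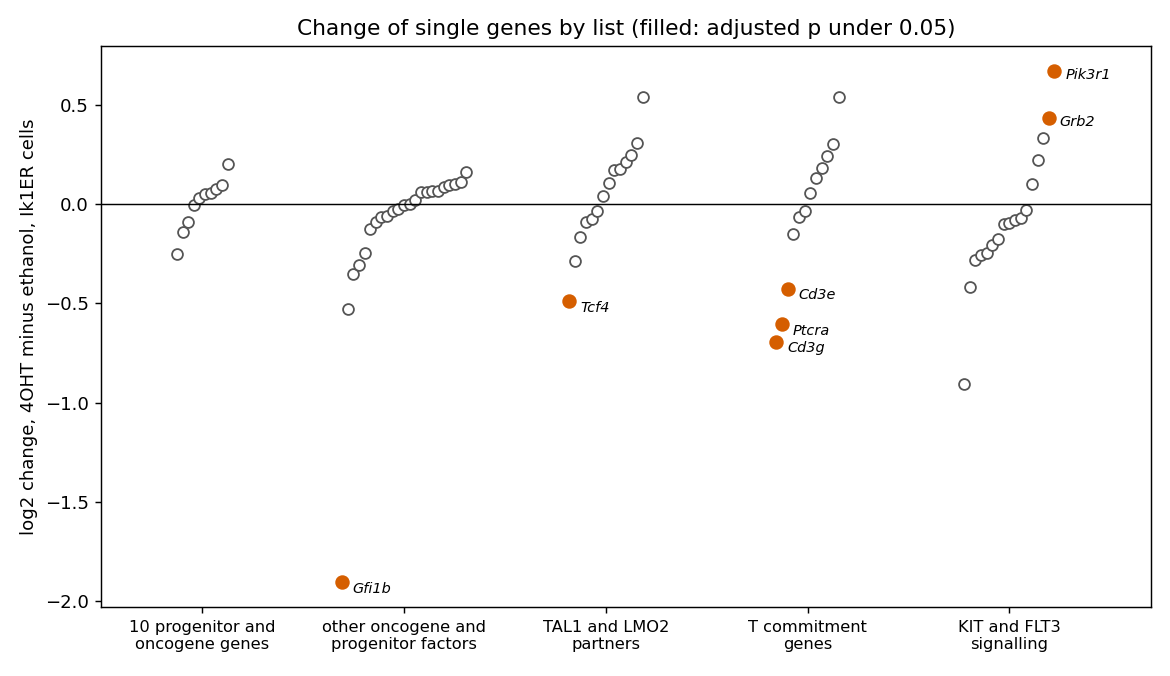
Log2 change with 4OHT against ethanol in Ik1ER cells (y axis) for the 10 genes and the 4 lists of related genes (x axis), 1 point per gene, filled and named where limma's adjusted p was under 0.05. The 10 genes lie between -0.25 and 0.20 with none filled, and Gfi1b lies lowest at -1.90.

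Promoter sequence was compared as a feature the choice of genes did not use. RefSeq promoter windows (GRCm38.p6, 250 bases before to 50 after a transcript start) were found for 8 of the 10 genes, 13 windows in all, and not for Lmo2 and Spi1. The core letters of the Ikaros binding motif, TGGGAA on either strand, were in 2 of the 13, one of Tal1 and one of Bcl11a, against 25.6% of all 32851 promoter windows of that length. These 2 are shown because they hold the motif of the induced factor. The reading of neither gene was called as changed, but Tal1 read below 5.27 on all arrays. Of the Bcl11a probe sets only the less specific _x_at one read above 5.27, so that a missing call says little about either promoter. Capitals mark the motif.
Tal1, chr4:115056176-115056475, plus strand: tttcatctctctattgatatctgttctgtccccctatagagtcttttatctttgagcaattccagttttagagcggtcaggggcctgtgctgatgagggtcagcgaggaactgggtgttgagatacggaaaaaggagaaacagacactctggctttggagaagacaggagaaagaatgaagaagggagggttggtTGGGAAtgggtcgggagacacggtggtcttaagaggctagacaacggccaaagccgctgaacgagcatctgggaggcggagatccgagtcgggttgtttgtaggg
Bcl11a, chr11:24080445-24080744, plus strand: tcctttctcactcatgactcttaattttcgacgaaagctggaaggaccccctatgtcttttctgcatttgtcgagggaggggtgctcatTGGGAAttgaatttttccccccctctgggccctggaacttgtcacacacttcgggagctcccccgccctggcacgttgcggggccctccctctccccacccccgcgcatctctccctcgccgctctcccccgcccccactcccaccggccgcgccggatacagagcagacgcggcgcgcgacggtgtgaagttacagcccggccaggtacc

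The motif began 55 bases before the transcript start in Tal1 and 161 bases before it in Bcl11a. The E-box CAGATG, which TAL1 and LYL1 bind with their E protein partners, was on either strand in 3 of the 13 windows (Tal1, Mef2c and Flt3) against 17.2% of all windows. A match is a description of letters, and binding was not measured here.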

How the data were processed

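The authors deposited 1 table of log2 expression values, 1 column per array, from biotin-labelled total RNA. The submitters' processing notes name RMA, with no version or build. RMA sets arrays to a common distribution, so that a global shift cannot be seen. Apart from that, changes of genes not above background are compressed on such arrays. Array medians lay between 5.36 and 5.43. Of 45101 probe sets, 34945 had 1 gene symbol in the platform annotation. The probe set of highest mean stood for a gene, with those ending in _x_at used for a gene outside the 10 only where it had no other.

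A model of 4 group means over the 8 arrays was fitted with limma's lmFit and eBayes (limma 3.58.1, R 4.3.3, 4 residual degrees of freedom), with Benjamini-Hochberg adjustment over 18193 genes in each of 6 contrasts and calls at an adjusted p under 0.05. The sixth contrast, the line difference over both treatments, is the mean of the other two line differences. The fit was tested on simulated data. The members, lists and tests were chosen with earlier results of these data known. The text names the 10 genes, up to 4 called genes a list for 4OHT in Ik1ER cells and for the line over both treatments, or else the 2 of smallest p, and the 3 genes most like the gene with the widest range of group means. Genes of the lists without a value include Tcf7, Lck, Flt3l and Lyn, and Gata3 is in 2 lists. Other settings tried were a replicate block, dim genes left out, trend and robust settings, quantile normalization, median centring, the mean over probe sets, every probe set, no rule on _x_at, only the arrays compared, each array left out, both Ik1ER arrays numbered 2 left out, and the transferrin receptor 3' to 5' difference as a covariate.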

Additional observations from a re-analysis of the deposited data

Results flagged for a closer look

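The 4OHT effect differed between the lines, by limma's test of the difference itself, for 2 of the genes named, neither of them among the 10. For Gfi1b the effect in Ik1ER cells minus that in MigR1 cells was -2.06 on the log2 scale (SE 0.13, adjusted p = 0.00138), and it was called in 18 of 18 alternative settings. For Cd3g it was -0.70 (SE 0.13, adjusted p = 0.0490), and it was called in 9 of 18 settings, with an adjusted p of up to 0.197 (without MigR1 ethanol replicate 2), and lost without any array except Ik1ER 4OHT replicate 1.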

How the results depend on the processing

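None of the 10 genes was called by limma in any of the 6 comparisons under any of the 18 or 19 alternative settings of each, over 1078 values in all. Of these, 93 had another sign than the value reported, none of them called, and 27 of the 93 had moved by more than 1 SE. Leaving out dim genes kept only Flt3, Spi1 and Bcl11a of the 10. The smallest adjusted p of a member was 0.0869 (Lyl1 between the lines in 4OHT, without Ik1ER 4OHT replicate 1), and for 4OHT in Ik1ER cells it was 0.178 (Lyl1, without the same array). The value of Flt3 there ranged from 0.16 to 0.24 and that of Lmo2 from -0.49 to -0.01. Counts over all genes moved more. For 4OHT in Ik1ER cells 973 genes were called, against 386 without both Ik1ER arrays numbered 2 and 1560 with the transferrin receptor covariate. The line difference had 928 in 4OHT (242 without MigR1 4OHT replicate 2) and 325 over both treatments (40 without that array, 694 with trend and robust settings), and the difference of the 4OHT effect had 229 (51 without that array, 575 with the covariate). The 1 gene of MigR1 cells was lost in 16 of 19 settings. The cause was not tested. The replicate block changed no call of the 10. It fitted 1 shift for both lines, however, so that it cannot take up a shift shared only within a line. The labels share only numbers: the replicate 1 minus replicate 2 differences of ethanol and 4OHT arrays correlated at 0.448 across genes in Ik1ER cells and 0.269 in MigR1 cells, and between the lines at -0.0687 to 0.102. Gfi1b kept its call with 4OHT in Ik1ER cells in 19 of 19 settings (-2.06 to -1.81) and Mycn its line call in 18 of 18 (-0.97 to -0.33). Readings near or below the highest background mean limit what can be seen for 7 of the 10 genes. Spi1 read not far above that mean, and Bcl11a only on its less specific probe set, so that these 2 are limited too.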
